A study of Mus musculus with 34 samples.

Results

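The CpG islands of the Gata factor genes Gata2, Gata3, Gata4, Gata5 and Gata6 were followed across 34 mouse methylated DNA immunoprecipitation (mDIP) arrays. All 123 probes whose gene name on the array is one of these 5 symbols were taken and joined into islands wherever neighbouring probes lay at most 500 bases apart, with at least 3 probes in an island. This gave 16 islands of the 13616 that could be scored on every array, and none of them carries another gene's name. Gata2, Gata3 and Gata6 have 4 islands each, Gata4 has 3 and Gata5 has 1. In mDIP, sheared DNA (fragments of 300 to 1000 bp) is bound by an antibody against 5-methylcytidine, and bound and input DNA are labelled with Cy5 and Cy3 and hybridized together on a CpG island microarray. Each probe's log ratio of bound over input was set against the mean and SD of its own array to give a Z-score, and averaging the Z-scores of an island's probes gives its methylation score, the IMS. An IMS below 0 is read here as unmethylated and an IMS above 0.75 as methylated. The score is an average over all cells of a sample, so a few fully methylated cells and many partly methylated ones cannot be told apart.

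The arrays fall into 5 groups and 3 single pancreatic samples, and all mouse DNA is given as C57Bl/6. Adult tissue comprised 16 arrays, 2 each of colon, pancreas, brain, kidney, liver, lung, muscle and spleen from mice 3 months old. Colon and pancreas were from males. In the other tissues replicate 1 was female and replicate 2 male, except for lung, where both were female. Whole embryos were taken at 8.5, 9.5, 10.5, 11.5 and 12.5 days post coitum (dpc), with 1 array per day. The embryo of 12.5 dpc was female and the others were male. Undifferentiated embryonic stem (ES) cells were the lines EB5, J1 and TT2, with 1 array each. Differentiated ES cells comprised 5 arrays from 4 procedures, so the spread within this group includes the difference between procedures. Embryoid bodies were grown from TT2 for 2 days in hanging drops and 4 days in suspension without LIF. Retinoic acid treated cells had 1 µM of the agent for 8 days, and the label gives TT2 as the parent whereas the methods give J1. Endoderm (2 arrays) and mesoderm (1 array) came from 1 reporter line derived from EB5, cultured for 6 days with 10 ng/ml Activin A and sorted as Gsc+Sox17+ and Gsc+Sox17- cells. Teratomas (2 arrays) grew for 2 weeks after injection of ES cells under the skin of NOD-SCID mice, which still supply host vessels and stroma, and their parent line is J1 by the label but D3,C4 by the methods. The single samples were beta cells sorted with an insulin antibody from islets of mice 2 to 8 months old that carried a Pdx1-GFP transgene, and the islet tumour lines Min6 (beta) and aTC (alpha). The labels name no separate animals or cultures for the replicates, so p-values measure only the spread between these arrays.

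GATA factors are zinc finger proteins that bind the DNA motif after which they are named and switch on genes of particular lineages. Gata2 and Gata3 act mainly in the blood system, where Gata2 is needed by stem and progenitor cells and Gata3 directs T cells. Gata4, Gata5 and Gata6 act in heart, gut, liver and pancreas, and Gata4 and Gata6 are among the earliest factors of primitive and definitive endoderm. The promoters of such regulators lie in CpG islands that are normally kept free of methylation in the embryo.

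Of the 21 calls between groups described below, 9 lie at 3 islands over or near a transcript start, those of Gata5 and of both Gata2 starts, and these promoters are printed to show how densely the CpG dinucleotides, at which cytosine is mainly methylated in mammals, are placed there. The sequences are from RefSeq on GRCm38.p6, cover 300 bases around the transcript start, most of them before it, and have every CG in capitals.
Gata5, chr2:180334630-180334929, minus strand: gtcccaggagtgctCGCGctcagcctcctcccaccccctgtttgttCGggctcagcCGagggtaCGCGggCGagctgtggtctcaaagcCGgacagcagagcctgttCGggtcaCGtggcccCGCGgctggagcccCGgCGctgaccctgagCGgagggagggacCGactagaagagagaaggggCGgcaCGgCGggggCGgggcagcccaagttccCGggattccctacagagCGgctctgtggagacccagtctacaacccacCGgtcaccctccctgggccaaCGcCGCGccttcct
Gata2, nearer start, chr6:88198414-88198713, plus strand: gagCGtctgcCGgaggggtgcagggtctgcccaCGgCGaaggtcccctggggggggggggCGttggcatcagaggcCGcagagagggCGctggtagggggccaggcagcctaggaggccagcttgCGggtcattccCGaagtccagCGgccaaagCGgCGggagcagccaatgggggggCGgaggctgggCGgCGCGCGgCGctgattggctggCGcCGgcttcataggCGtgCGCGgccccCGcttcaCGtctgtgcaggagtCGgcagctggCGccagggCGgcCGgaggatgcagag
Gata2, distal start, chr6:88193641-88193940, plus strand: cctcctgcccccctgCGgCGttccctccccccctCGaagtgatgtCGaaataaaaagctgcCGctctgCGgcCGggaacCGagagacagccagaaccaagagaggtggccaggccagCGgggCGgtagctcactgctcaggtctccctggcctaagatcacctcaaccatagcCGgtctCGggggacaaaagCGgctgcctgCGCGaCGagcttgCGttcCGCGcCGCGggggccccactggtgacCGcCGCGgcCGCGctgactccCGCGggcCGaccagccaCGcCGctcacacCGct
The Gata5 promoter holds 26 CG, the nearer Gata2 promoter 29 and the distal one 32, whereas the median of 32851 promoters of the same length is 7. They hold more CG than 83.1%, 87.1% and 90.5% of all promoters, in that order. The 4 letters GATA, searched on both strands as GATA or TATC, occur in 57.9% of all promoters and in none of these 3. The Gata2 starts lie 4773 bases apart in that assembly. RefSeq promoters were at hand for 3 of the 5 genes, and Gata3's, with 22 CG and 1 GATA, is not printed. Island positions below are in mm9, as printed in the array files, with distances to the RefSeq start taken from the array annotation.

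Several arrays stood apart from the rest of their group. Input probes were a median of 3.07 to 7.34 times background across arrays and bound probes 1.54 to 5.59 times. The arrays labelled brain, kidney, liver, lung, muscle and spleen replicate 1, all scanned on 1 day, each correlated best with the other tissue of their own slide (r between 0.27 and 0.57 over islands) and not with replicate 2 of their labelled tissue (r between -0.25 and -0.02). An exchange of labels among adult tissues leaves the mean of the adult group as it is, but comparisons between tissues are open to it, and their Gata calls are given with and without these 6 arrays. The scanner file labelled J1 correlated best with pancreas replicate 2 (r = 0.68, against -0.19 with EB5 and -0.20 with TT2), and its scanner values correlated with the authors' processed table at only r = 0.113, against 0.894 to 0.991 for the other 33 arrays. The values of undifferentiated ES cells on which a call or an order rests are therefore given without the array labelled J1 as well. The arrays came from 23 slides and 16 scan days. Embryos shared no slide, scan day or scanner software version with adult tissue, so batch and group cannot be told apart there. Differentiated ES cells shared no slide or scan day with embryos, teratomas or undifferentiated ES cells either. The retinoic acid array and the embryo of 8.5 dpc were each alone in their group in having another scanner with its own software version.

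**Figure D1:**
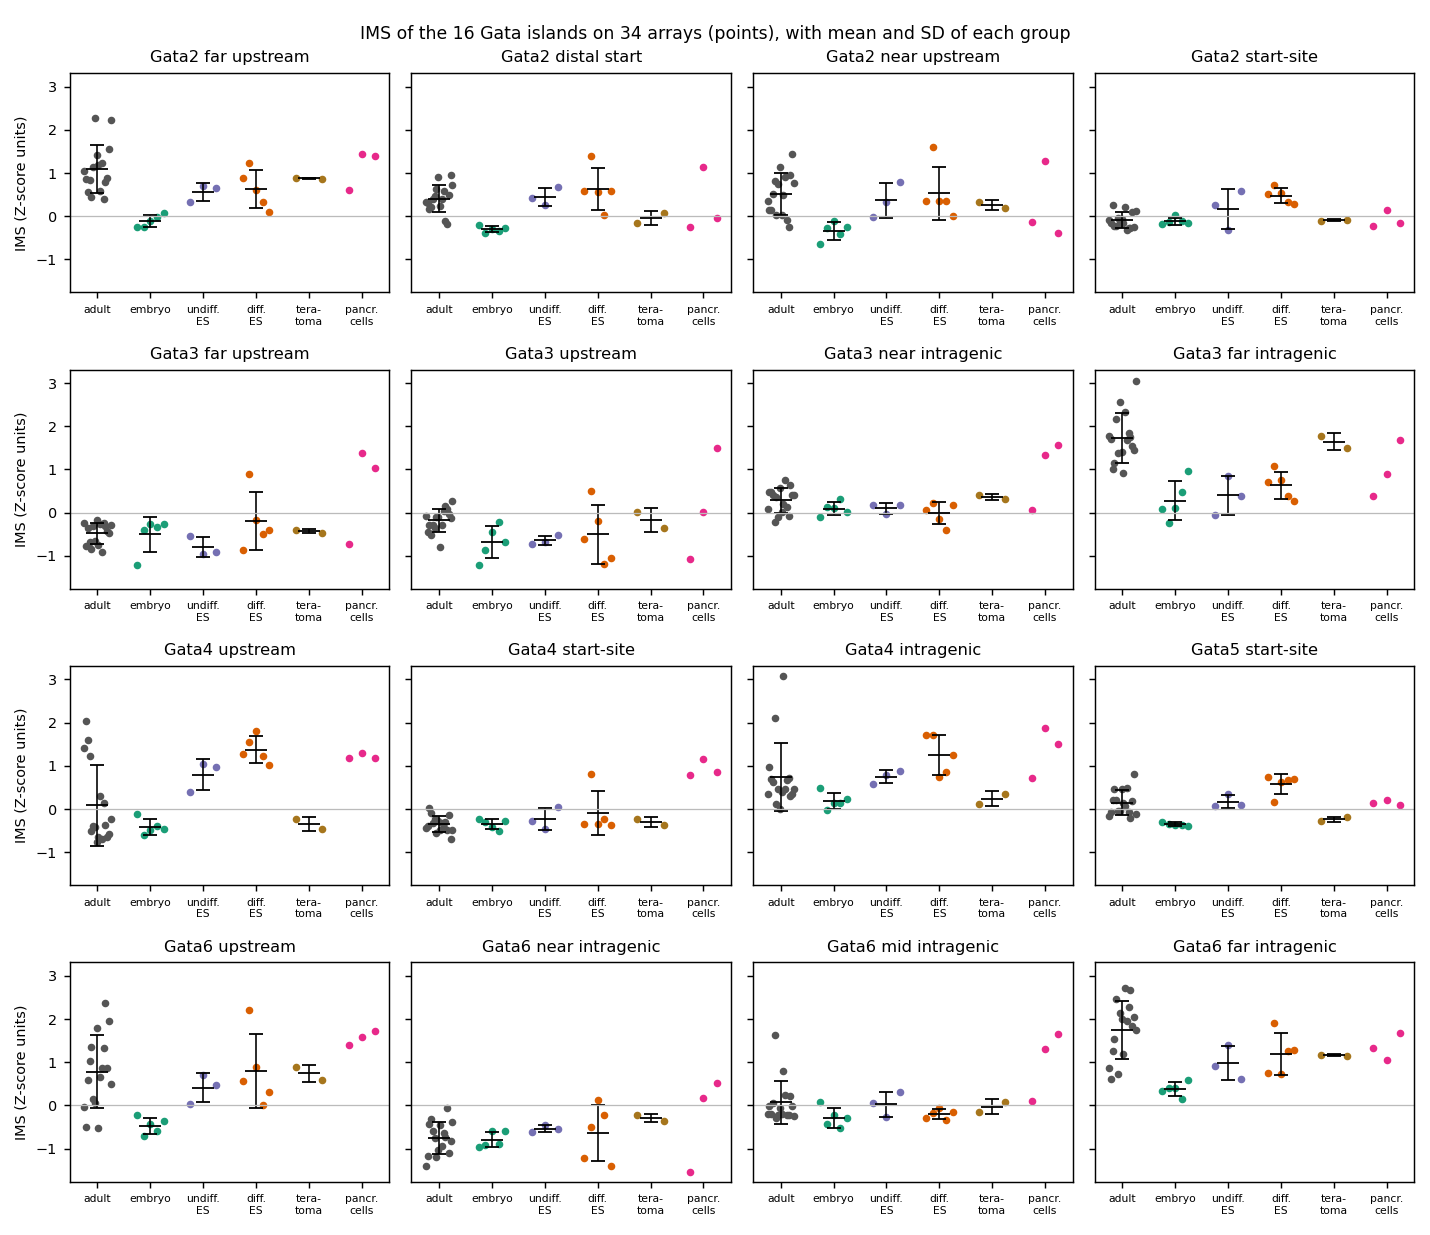
Each panel is 1 of the 16 Gata islands, the y axis is the IMS in Z-score units and each point is 1 array, with the mean and SD of each group as bars and none for the 3 single pancreatic samples. The embryo points sit below 0 on all 5 arrays at 9 of the 16 islands, and the differentiated ES points sit above 0.75 at the Gata4 upstream and Gata4 intragenic islands.

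The scores were first set against the limits of 0 and 0.75. The share of all islands within these limits was not counted, so the counts do not set the Gata islands apart. All 5 embryos scored below 0 at 9 of the 16 islands, and no island was above 0.75 in all of them. In adult tissue 2 islands, Gata3 far upstream and Gata6 near intragenic, were below 0 on all 16 arrays and 1, Gata3 far intragenic, was above 0.75 on all 16. In differentiated ES cells 1 island, Gata6 mid intragenic, was below 0 on all 5 arrays, and the Gata4 upstream and intragenic islands were above 0.75 on all 5, the array of endoderm replicate 1 lying at the limit of 0.75 in the intragenic island.

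Differentiated ES cells were compared with both in vivo references to ask whether culture leaves methylation at these genes that the animal does not have. Against embryos 7 of the 16 Gata islands were higher in differentiated ES cells and none was lower (limma, adjusted p under 0.05 over 13616 islands), whereas 21.1% of all islands differed, 11.8% being higher and 9.29% lower. The difference was above 0 at 15 of the 16 islands, with a median of 0.67 against -0.04 over all islands. Against adult tissue 3 were higher and 1 was lower, and these 4 of 16 are a share near the background, in which 23.2% of all islands differed, 14.4% being higher and 8.73% lower. Embryos against adult tissue gave 7 lower islands and none higher, in a comparison in which 8.64% of all islands differed, 3.47% being lower and 5.17% higher in embryos, and the median difference was -0.50 against 0.04 over all islands. All 7 of these calls were lost with normexp background and with software version as a block. Undifferentiated ES cells were lower than adult tissue at 1 Gata island (background 2.30%, of which 1.31% lower and 0.984% higher). Differentiated and undifferentiated ES cells differed at none of the 16 by limma (background 5.43%, of which 3.51% higher and 1.92% lower in differentiated cells), and 3 had an unadjusted p under 0.05. Teratomas were lower than differentiated ES cells at 2 islands (background 6.81%, of which 5.27% lower and 1.53% higher). These comparisons share their adult, embryo and differentiated ES arrays and are not independent of each other.

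**Figure D2:**
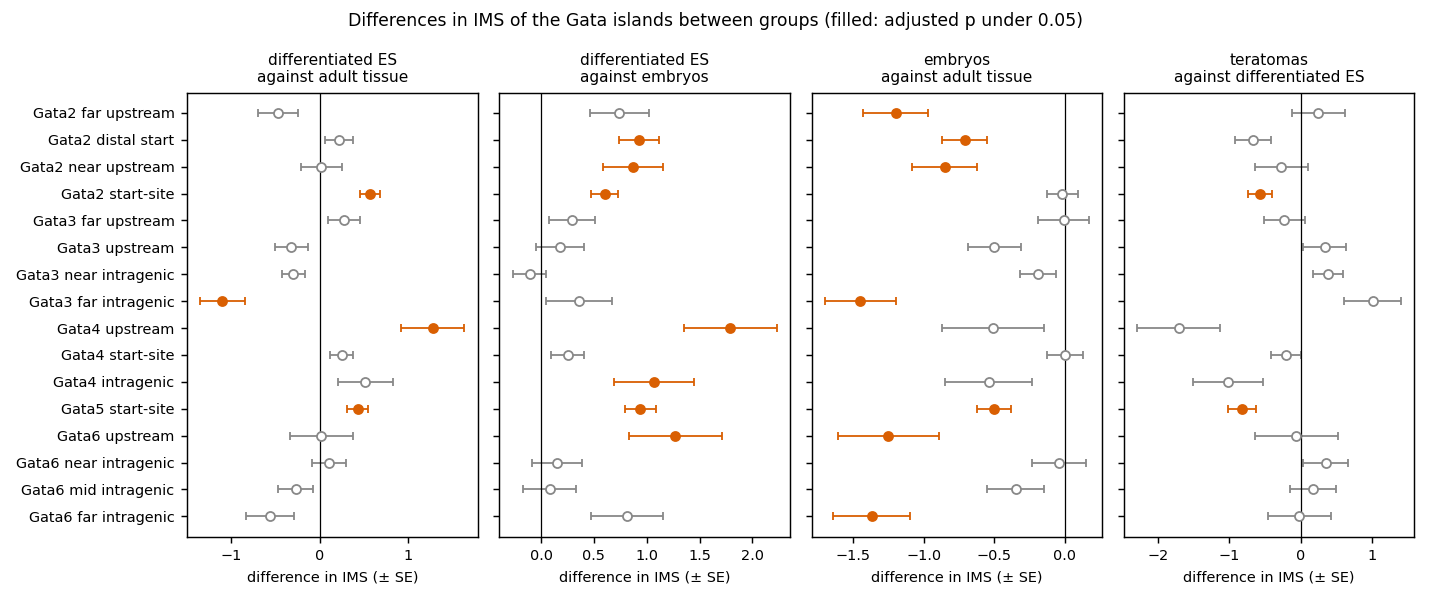
Difference in IMS between groups with its SE (x axis, Z-score units) for each of the 16 Gata islands in 4 comparisons, with filled points where the adjusted p is under 0.05. The filled points are all to the right of 0 in differentiated ES cells against embryos (7 islands) and all to the left of 0 in embryos against adult tissue (7 islands).

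Gata4, a factor of heart and endoderm, had its clearest differences away from its start. The Gata4 upstream island (chr14:63870354-63870670, 3 probes, 6548 to 6279 bases before the start) scored 1.27 in embryoid bodies, 1.56 after retinoic acid, 1.81 and 1.22 in endoderm and 1.01 in mesoderm. Embryos scored -0.12, -0.60, -0.49, -0.40 and -0.47 from 8.5 to 12.5 dpc, and teratomas -0.23 and -0.45. Every differentiated ES array was thus above 0.75 and every embryo and teratoma array was below 0, with no overlap. The mean was 1.37 ± 0.31 (SD, n = 5) in differentiated ES cells and -0.42 ± 0.18 (n = 5) in embryos, a difference of 1.79 ± 0.44 (SE, adjusted p = 0.0045). Undifferentiated EB5, J1 and TT2 cells scored 0.39, 1.05 and 0.97, with a mean of 0.80, or 0.68 without J1. Only the array labelled J1, which correlated best with pancreas replicate 2, overlapped the differentiated cells. EB5 and TT2 lay below all differentiated arrays. Adult arrays ranged from -0.76 to 2.03 around a median of -0.38. The 4 adult arrays above 0.75 were both of colon and both of pancreas, and they overlapped the differentiated cells, whereas the other 12 reached at most 0.30. Differentiated ES cells exceeded the adult mean by 1.28 ± 0.36 (adjusted p = 0.00932), a call that was lost when the 6 doubtful adult arrays were left out (0.91, adjusted p = 0.0888), on the median-centred log2 scale (adjusted p = 0.0782), with normexp background (adjusted p = 0.11) and with software version as a block (adjusted p = 0.0796). The call against embryos was lost with normexp background (adjusted p = 0.0866) and with software version as a block (adjusted p = 0.516). The difference from teratomas was -1.71 ± 0.58 and missed the threshold (adjusted p = 0.0683), although it passed without colon replicate 2 (adjusted p = 0.0331) or pancreas replicate 1 (adjusted p = 0.0495), which change only the pooled spread. All 3 probes were higher in differentiated ES cells than in adult tissue, embryos and teratomas.

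The Gata4 intragenic island (chr14:63859471-63860035, 5 probes, 4084 to 4604 bases after the start) scored 1.72 in embryoid bodies, 1.71 after retinoic acid, 0.75 and 0.85 in endoderm and 1.26 in mesoderm. Embryos scored 0.48, -0.02, 0.13, 0.14 and 0.23, all below the lowest differentiated array. The difference was 1.07 ± 0.38 (adjusted p = 0.0439), and leaving out any of 7 single arrays, among them embryoid bodies (0.95, adjusted p = 0.101) and retinoic acid (0.95, adjusted p = 0.0865), ended the call. Adult tissue ran from 0.00 to 3.08 with a median of 0.46, and its highest arrays were those labelled liver replicate 2 (3.08) and brain replicate 1 (2.11). Against adult tissue the difference was 0.52 ± 0.31 (adjusted p = 0.231), and it passed the threshold without the array labelled liver replicate 2 (0.68, adjusted p = 0.0177).

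At the Gata4 start-site island (chr14:63863910-63865589, 12 probes, 1470 bases before to 165 after the start), which covers the promoter itself, no comparison passed the test. The scores were -0.34 in embryoid bodies, 0.81 after retinoic acid, -0.35 and -0.24 in endoderm and -0.36 in mesoderm. Adult tissue ran from -0.70 to 0.03 (median -0.36), embryos scored -0.22, -0.30, -0.42, -0.51 and -0.28, and EB5, J1 and TT2 scored -0.27, -0.47 and 0.05. Both teratomas, at -0.23 and -0.38, lay in the same range. Retinoic acid treated cells were the 1 array of these 5 groups above the limit of 0.75.

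**Figure D3:**
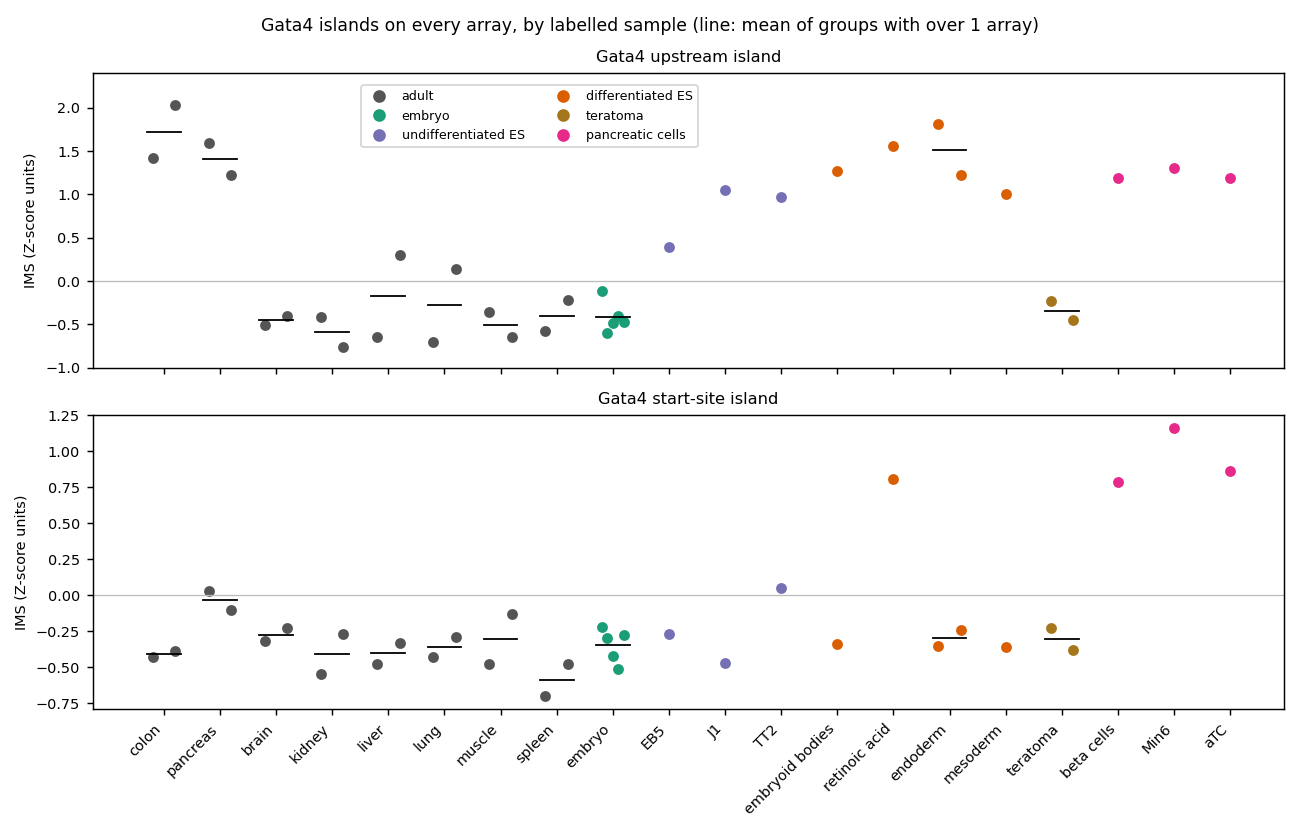
IMS (y axis, Z-score units) of the Gata4 upstream island (top) and the Gata4 start-site island (bottom) for every array, by labelled sample on the x axis, with a line at the mean where a sample has more than 1 array. In the upper panel colon, pancreas, differentiated ES, J1 and pancreatic cell arrays are at 1.01 or higher, and in the lower panel only retinoic acid treated cells, beta cells, Min6 and aTC are above 0.75.

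Gata5, which acts with Gata4 and Gata6 in heart and gut, has 1 island, over its start (chr2:180068293-180069740, 13 probes, 340 bases before to 1056 after), and this is the island with the most calls of the 16, in 4 of the 6 comparisons of groups. It scored 0.75 in embryoid bodies, 0.17 after retinoic acid, 0.63 and 0.68 in endoderm and 0.69 in mesoderm. The embryos were nearly level at -0.30, -0.35, -0.36, -0.37 and -0.39, and the teratomas were at -0.28 and -0.19. Differentiated ES cells therefore did not overlap with embryos or teratomas, although the retinoic acid array lay far below the other four. The difference from embryos was 0.94 ± 0.15 (adjusted p = 6.12e-05), and teratomas were lower than differentiated ES cells by a difference of -0.82 ± 0.20 (adjusted p = 0.0102). That last call rests on both teratoma arrays, since the adjusted p was 0.179 without replicate 1 and 0.0928 without replicate 2. Adult tissue ran from -0.20 to 0.82 (median 0.11), its top array being the one labelled spleen replicate 1, and overlapped the differentiated cells. The differentiated cells exceeded the adult mean by 0.43 ± 0.12 (adjusted p = 0.0102), a call lost with median and MAD standardisation (a difference of 0.32) and on the median-centred log2 scale (0.37, adjusted p = 0.246). Embryos lay below every adult array, by a difference in means of -0.50 ± 0.12 (adjusted p = 0.00873). That call was lost with normexp background (-0.25, adjusted p = 0.303), with slide as a random block (-0.48, adjusted p = 0.0764) and with software version as a block (-0.12, adjusted p = 0.952), and the call against embryos above was lost with software version as a block (0.62, adjusted p = 0.409). EB5, J1 and TT2 scored 0.06, 0.34 and 0.10. In order of their means the groups ran from differentiated ES cells (0.58 ± 0.23) through undifferentiated ES cells (0.17 ± 0.15) and adult tissue (0.15 ± 0.28) to teratomas (-0.24 ± 0.06) and embryos (-0.35 ± 0.04). Undifferentiated ES cells and adult tissue, neighbours in that order, differed by 0.02, less than their spread, and without J1 the mean of undifferentiated ES cells was 0.08, below that of adult tissue.

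The difference at Gata5 ran along the whole island whose promoter sequence is printed above. All 13 probes were higher in differentiated ES cells than in embryos, by 0.08 to 1.54 Z-score units, and all 13 were higher than in teratomas, by 0.19 to 1.88. Against adult tissue 12 of 13 were higher.

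**Figure D4:**
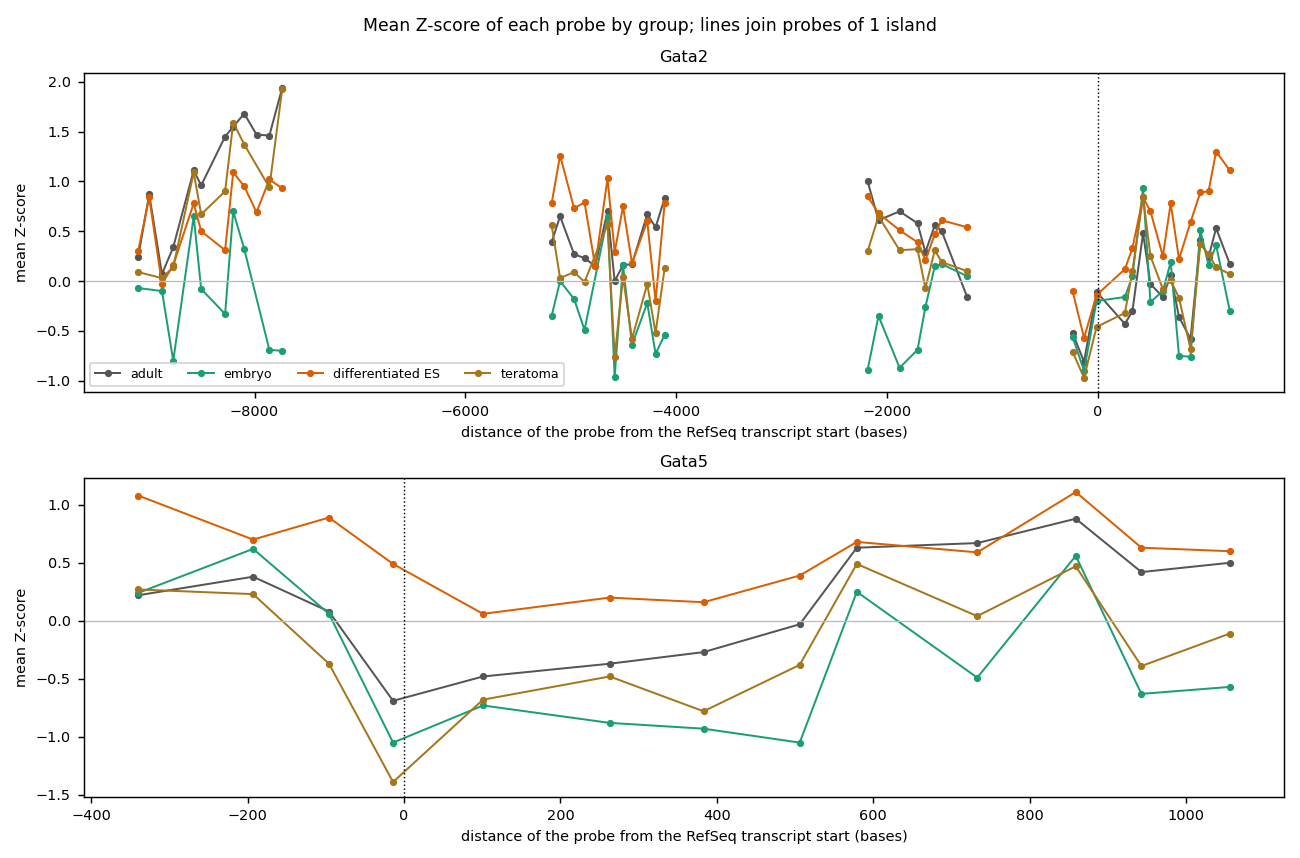
Mean Z-score (y axis) of each probe in adult tissue, embryos, differentiated ES cells and teratomas against its distance from the RefSeq start in bases (x axis), for the 4 Gata2 islands (top) and the Gata5 island (bottom), with lines joining the probes of 1 island. In the lower panel the differentiated ES line lies above the embryo and teratoma lines at all 13 probes.

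Gata6, which acts in primitive endoderm and in the pancreas, differed mainly between embryos and the other groups. The Gata6 upstream island (chr18:11048304-11048679, 4 probes, 4174 to 3850 bases before the start) scored 0.56 in embryoid bodies, 2.22 after retinoic acid, 0.90 and 0.01 in endoderm and 0.31 in mesoderm, and -0.23, -0.71, -0.42, -0.60 and -0.37 in embryos. All 5 embryos were below all 5 differentiated arrays. The difference was 1.27 ± 0.44 (adjusted p = 0.0402), and without the retinoic acid array, the highest of the group, it was 0.91 with an adjusted p of 0.129. In 6 other cases, among them 4 of the 5 embryos, leaving out 1 array also ended the call. Adult tissue ranged from -0.51 to 2.37 (median 0.77), overlapping the embryos at the arrays labelled colon replicate 2 (-0.49) and liver replicate 1 (-0.51). Embryos were lower than the adult mean by a difference of -1.25 ± 0.36 (adjusted p = 0.0259), a call lost without the embryo of 9.5 dpc (adjusted p = 0.084), 10.5 dpc (0.0585) or 11.5 dpc (0.0721).

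The Gata6 far intragenic island (chr18:11059016-11059250, 3 probes, 6531 to 6721 bases after the start) scored 0.33, 0.40, 0.41, 0.15 and 0.59 in embryos and from 0.62 to 2.72 in adult tissue (median 1.90). The ranges do not overlap, and the difference was -1.37 ± 0.27 (adjusted p = 0.0014). Differentiated ES cells, at 0.76, 1.91, 0.73, 1.26 and 1.28, also lay above every embryo, but that difference (0.81 ± 0.34) had an adjusted p of 0.0856. The island of Gata6 with most probes, mid intragenic (chr18:11053959-11055315, 14 probes, 1481 to 2782 bases after the start), passed no test. It scored -0.29, -0.18, -0.06, -0.33 and -0.14 in differentiated ES cells, 0.07, -0.43, -0.22, -0.52 and -0.30 in embryos, 0.06, -0.27 and 0.31 in EB5, J1 and TT2, and -0.14 and 0.09 in teratomas. Adult tissue had a median of -0.12, with only the arrays labelled brain replicate 1 (1.64) and liver replicate 2 (0.80) above 0.25. The Gata6 near intragenic island (chr18:11052720-11053099, 3 probes, 235 to 565 bases after the start) was below 0 on every adult, embryo, undifferentiated ES and teratoma array and on 4 of 5 differentiated ES arrays, and passed no test.

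Gata2, the factor of blood stem and progenitor cells, has 4 islands, each of which was higher than in embryos on average in differentiated ES cells. The start-site island (chr6:88148400-88149936, 15 probes, 239 bases before to 1253 after the start) scored 0.51 in embryoid bodies, 0.73 after retinoic acid, 0.54 and 0.34 in endoderm and 0.29 in mesoderm. Adult tissue reached from -0.31 to 0.25 (median -0.15), embryos scored -0.19, -0.14, 0.03, -0.12 and -0.16 and teratomas -0.10 and -0.08. The 5 differentiated arrays were above every array of these 3 groups, although none reached 0.75. The difference was 0.57 ± 0.11 from adult tissue (adjusted p = 0.000151), 0.60 ± 0.13 from embryos (adjusted p = 0.00151) and, for teratomas minus differentiated ES cells, -0.57 ± 0.17 (adjusted p = 0.0375). The call against teratomas was lost without any 1 of 5 arrays (adjusted p = 0.0526 to 0.301) and without the 6 doubtful adult arrays (adjusted p = 0.0528). EB5, J1 and TT2 scored 0.26, -0.32 and 0.58. Undifferentiated ES cells were 0.27 ± 0.13 above adult tissue (adjusted p = 0.298), and 0.51 above it (adjusted p = 0.0123) without the array labelled J1. In differentiated ES cells 14 of the 15 probes were higher than in adult tissue and 14 of 15 higher than in embryos.

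The distal start island of Gata2 (chr6:88143456-88144574, 12 probes, 5181 to 4109 bases before the nearer start) scored 0.59 in embryoid bodies, 1.39 after retinoic acid, 0.56 and 0.04 in endoderm and 0.58 in mesoderm, against -0.20, -0.39, -0.30, -0.35 and -0.26 in embryos. The near upstream island (chr6:88146456-88147447, 8 probes, 2183 to 1239 bases before) scored 0.35, 1.61, 0.35, 0.36 and 0.00 in the same order, against -0.64, -0.28, -0.12, -0.40 and -0.25 in embryos. In both islands every embryo lay below every differentiated array and retinoic acid gave the highest value. The differences were 0.93 ± 0.19 (adjusted p = 0.001) at the distal start and 0.87 ± 0.28 (adjusted p = 0.0268) near upstream. The latter fell to 0.60 (adjusted p = 0.0957) without the retinoic acid array and also missed the threshold without the embryo of 8.5 dpc (0.79, adjusted p = 0.0619) or 11.5 dpc (0.85, adjusted p = 0.0521). Adult tissue ranged from -0.19 to 0.95 at the distal start (median 0.41) and from -0.25 to 1.43 near upstream (median 0.51). Embryos were lower than adult tissue in both, by differences of -0.71 ± 0.16 (adjusted p = 0.00387) and -0.85 ± 0.23 (adjusted p = 0.0168), and the second of these had an adjusted p of 0.0669 without the embryo of 8.5 dpc.

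The far upstream island of Gata2 (chr6:88139535-88140951, 12 probes, 9104 to 7737 bases before the nearer start) separated embryos from adult tissue. Embryos scored -0.24, -0.24, -0.12, -0.02 and 0.08, and adult arrays from 0.41 to 2.27 (median 0.96). There was no overlap, and the difference was -1.20 ± 0.23 (adjusted p = 0.00106). All 10 probes measured in both groups were higher in adult tissue, by 0.17 to 2.64. Differentiated ES cells scored 0.88, 1.23, 0.60, 0.33 and 0.09, all above the highest embryo, with a difference of 0.74 ± 0.28 (adjusted p = 0.0645). That difference passed the threshold without mesoderm (0.87, adjusted p = 0.0423), kidney replicate 1 (adjusted p = 0.0356), spleen replicate 2 (adjusted p = 0.0381) or the 6 doubtful arrays (adjusted p = 0.0374).

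Gata3, the T cell factor, was the only gene of the 5 with an island called lower in ES cells than in adult tissue. Its far intragenic island (chr2:9796366-9796655, 3 probes, 2772 to 3015 bases after the start) scored from 0.91 to 3.04 in adult tissue (median 1.70), so that all 16 arrays were above 0.75. Differentiated ES cells scored 0.70, 1.07, 0.76, 0.38 and 0.26, embryos 0.08, -0.24, 0.11, 0.47 and 0.96, and EB5, J1 and TT2 -0.06, 0.86 and 0.39. Undifferentiated ES cells were below every adult array, and the ranges of differentiated cells and embryos each overlapped the lower end of the adult range. The differences from adult tissue were -1.10 ± 0.25 in differentiated ES cells (adjusted p = 0.00152), -1.45 ± 0.25 in embryos (adjusted p = 0.000297) and -1.33 ± 0.30 in undifferentiated ES cells (adjusted p = 0.018). The last was -1.56 (adjusted p = 0.00495) without the array labelled J1, but missed the threshold without EB5 (-1.10, adjusted p = 0.366) or TT2 (-1.33, adjusted p = 0.279). Teratomas scored 1.78 and 1.50, within the adult range and above all differentiated ES arrays, and that difference (1.01 ± 0.40) had an adjusted p of 0.13.

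The other 3 Gata3 islands passed no test between groups with all arrays in the fit. The far upstream island (chr2:9803848-9804827, 8 probes, 5398 to 4467 bases before the start), which also lies near 2 transcripts annotated on the other strand, scored -0.87 in embryoid bodies, 0.90 after retinoic acid, -0.16 and -0.50 in endoderm and -0.39 in mesoderm. Adult arrays lay between -0.92 and -0.18 (median -0.39), embryos at -1.20, -0.41, -0.27, -0.34 and -0.26, EB5, J1 and TT2 at -0.53, -0.95 and -0.91 and teratomas at -0.40 and -0.47. Apart from retinoic acid treated cells every array of these groups was below 0. The upstream island (chr2:9802738-9803164, 4 probes) was at -0.18 ± 0.27 in adult tissue (n = 16) and -0.50 ± 0.68 in differentiated ES cells (n = 5). That difference passed the threshold without the retinoic acid array (-0.58, adjusted p = 0.0113), which alone scored above 0 in its group, at 0.50. Without it the difference between embryos and adult tissue passed as well (-0.50, adjusted p = 0.0362). The near intragenic island (chr2:9798830-9799177, 4 probes) was at 0.29 ± 0.29 in adult tissue and -0.01 ± 0.26 in differentiated ES cells, and that difference passed the threshold without the array labelled brain replicate 1 (-0.33, adjusted p = 0.0479) or without the 6 doubtful arrays (-0.39, adjusted p = 0.0131).

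The 2 scan days that held both differentiated ES and adult arrays gave values within a batch for the 4 islands called between these groups. On 1 day, embryoid bodies exceeded the mean of brain, kidney and spleen replicate 2 by 1.73 at Gata4 upstream, 0.65 at Gata5 and 0.50 at the Gata2 start site, and had a difference of -1.24 at Gata3 far intragenic. On the other, endoderm replicate 2 minus pancreas replicate 1 gave -0.37, 0.47, 0.08 and -0.63 in the same order of islands. The direction was that of the pooled result in both, except at Gata4 upstream, where pancreas is one of the tissues with a high score. At Gata3 far intragenic, the call of undifferentiated ES cells against adult tissue, EB5 minus pancreas replicate 2 gave -1.21 within 1 scan day. The array labelled J1 minus the mean of the 6 doubtful arrays gave -0.89 within another. Since that array correlated best with pancreas replicate 2 and not with EB5 or TT2, its difference cannot be read as one of ES cells. With the scan day or the slide as a fixed block no Gata island passed the test in any comparison of groups that such a fit could estimate. At the called islands the differences kept their direction in these fits. For embryos they rest on the embryo of 8.5 dpc, the only embryo to share a slide or scan day with another group. At Gata4 upstream, Gata3 far intragenic, Gata5 and the Gata2 start site the scan-day fit gave differences from adult tissue of 0.89 ± 0.43, -0.99 ± 0.44, 0.57 ± 0.23 and 0.33 ± 0.14 (adjusted p = 0.17, 0.139, 0.0989 and 0.127). The part of scan day in these results was not tested further.

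Among adult tissues the Gata4 upstream island stood out in colon. Colon scored 1.42 and 2.03 and pancreas 1.59 and 1.23. The arrays labelled brain scored -0.51 and -0.40, kidney -0.42 and -0.76, liver -0.65 and 0.30, lung -0.70 and 0.14, muscle -0.36 and -0.65 and spleen -0.58 and -0.22. Colon and pancreas did not overlap with any other tissue. Colon exceeded the mean of the other 7 tissues by 1.87 ± 0.26 (adjusted p = 0.00889), and with all arrays in the fit this was the 1 Gata island called for colon, where 0.720% of all islands were. Pancreas exceeded the others by 1.51 ± 0.26 (adjusted p = 0.117, where 0.0514% of all islands were called). Without the 6 doubtful arrays the values were 1.75 ± 0.18 for colon (adjusted p = 0.000325) and 1.39 ± 0.18 for pancreas (adjusted p = 0.00226). Both colon arrays were scanned on 1 day with no other tissue, so colon and scan day cannot be told apart. Across all 8 tissues no Gata island passed the moderated F test of limma (background 0.0808%), 2 had an unadjusted p under 0.05 and Gata4 upstream was the nearest (adjusted p = 0.0879). Without the 6 arrays 7 Gata islands passed, against 9.79% of all islands, in a fit whose spread rests on colon and pancreas, the only tissues then left with 2 arrays. The 7 were Gata4 upstream and intragenic, Gata6 upstream, near intragenic and far intragenic, Gata3 far intragenic and Gata2 far upstream. In that fit colon was also lower than the other tissues at 3 Gata6 islands, by differences of -1.14 upstream (adjusted p = 0.00229), -0.53 near intragenic (adjusted p = 0.0432) and -1.07 far intragenic (adjusted p = 0.00136), and pancreas was lower at Gata3 far intragenic (-0.82, adjusted p = 0.00761). The share of all islands called for each single tissue in that fit is not given, so the calls for single tissues do not set the Gata islands apart. The other tissues then rest on 1 array each, assumed to vary like colon and pancreas. On that footing liver was higher at Gata4 intragenic (2.67, adjusted p = 9.13e-05), Gata6 mid intragenic (0.91, adjusted p = 0.0368) and Gata6 far intragenic (1.19, adjusted p = 0.00805). Spleen was higher at Gata3 far intragenic (1.42, adjusted p = 0.00108) and Gata2 far upstream (1.36, adjusted p = 0.00218), and kidney at Gata6 upstream (1.22, adjusted p = 0.0442). Brain was lower at Gata6 far intragenic (-1.09, adjusted p = 0.01) and lung at Gata2 far upstream (-0.72, adjusted p = 0.0455).

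In the pancreatic samples, which have 1 array each and no test, the Gata4 start-site island was the 1 Gata island at which sorted beta cells, Min6 and aTC were all above every adult array. Islands of this kind were not counted over the whole array. They scored 0.79, 1.16 and 0.86, while whole pancreas scored 0.03 and -0.10 and the highest adult array was at 0.03. At Gata4 upstream they scored 1.19, 1.30 and 1.19, beside 1.59 and 1.23 in whole pancreas. At Gata5 the 3 samples were close to each other (0.13, 0.21 and 0.09), as they were at Gata6 upstream (1.39, 1.59 and 1.73). At the Gata2 distal start Min6 (1.14) stood above beta cells (-0.24) and aTC (-0.04). Both lines stood above the sorted cells at most of the Gata islands. How often this held over all islands was not counted, so it does not set the Gata islands apart. Among the Gata islands of this kind are the 2 described next. At Gata3 far upstream Min6 (1.39) and aTC (1.03) were above the adult maximum of -0.18 and beta cells (-0.72) were within the adult range. The Gata6 near intragenic island scored 0.17 in Min6 and 0.52 in aTC, above the adult maximum of -0.05, but -1.53 in beta cells. All 3 samples were scanned on 1 day that held no other array, with a scanner and software version that no adult array had. Their batch therefore cannot be told apart from the cell type.

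**Figure D5:**
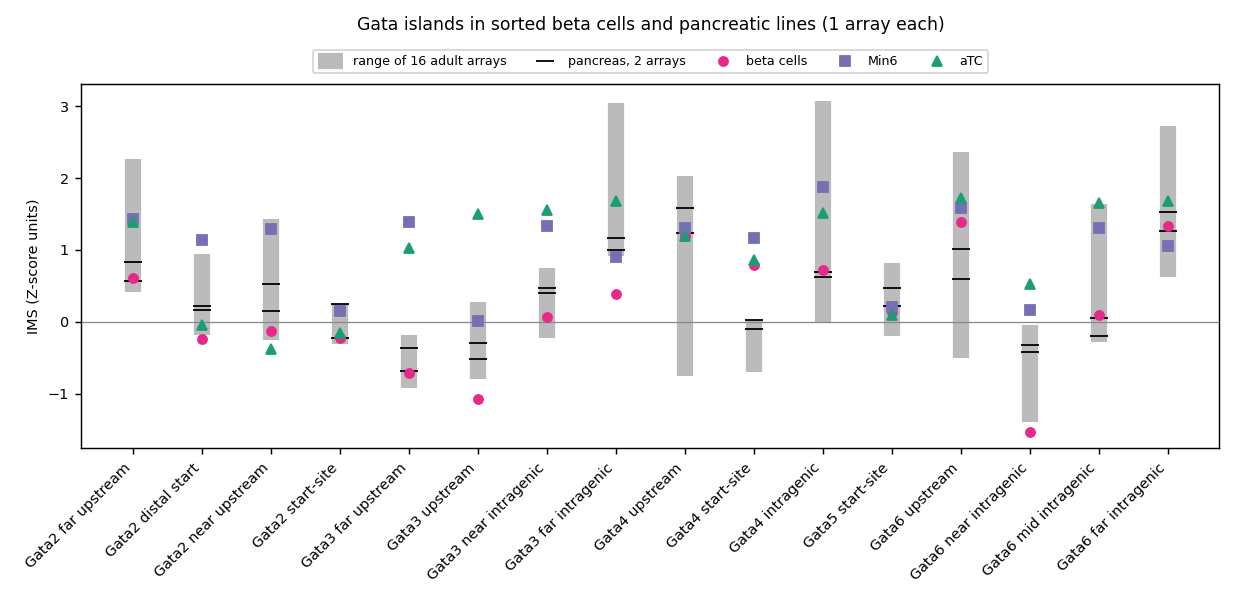
IMS (y axis, Z-score units) of the 16 Gata islands (x axis) in sorted beta cells, Min6 and aTC, 1 array each, with the range of the 16 adult arrays as a grey bar and both whole pancreas arrays as black lines. At the Gata4 start-site island all 3 symbols lie above the grey bar, which ends at 0.03.

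Genes that work with the GATA factors were read from the same fits. A list of 41 such genes matched 67 islands of 35 genes. In differentiated ES cells against adult tissue 18 of these islands were higher and 9 lower, 40.3% against 23.2% of all islands, and against embryos 16 were higher and 2 lower, 26.9% against 21.1%. The median difference from adult tissue was 0.07, against -0.01 over all islands. Against adult tissue the partners in endoderm had 7 of 13 islands higher and none lower, and those in heart 8 of 16 higher and 2 lower. Those in blood had 1 of 16 higher and 4 lower, and the 13 islands of partners in T cells, ear and trophoblast held no call. FOG cofactors had 1 of 4 higher and 2 lower, and other proteins with a GATA-type zinc finger 1 of 5 higher and 1 lower. Over all islands 14.4% were higher and 8.73% lower. The largest called differences were at Zfpm1, which encodes the cofactor FOG1 (-1.80 ± 0.41, adjusted p = 0.00173), the heart homeobox gene Nkx2-5 (1.70 ± 0.23, adjusted p = 1.84e-06), the blood factor gene Lyl1 (-1.49 ± 0.30, adjusted p = 0.000464), the endoderm factor gene Foxa1 (1.32 ± 0.15, adjusted p = 1.65e-07), the heart factor gene Hand1 (1.16 ± 0.27, adjusted p = 0.00217) and Trps1, whose product has a GATA-type zinc finger (0.86 ± 0.15, adjusted p = 7.42e-05). At Nkx2-5 differentiated ES cells (1.35 ± 0.51) and adult tissue (-0.35 ± 0.28) did not overlap, and the same held at Foxa1 (1.26 ± 0.48 against -0.05 ± 0.22). Zfpm1 was 1.41 ± 0.44 in differentiated ES cells and 3.21 ± 0.62 in adult tissue, with overlapping ranges. Embryo means lay at or near those of differentiated ES cells at Zfpm1 (1.41) and Lyl1 (0.48). They lay near those of adult tissue at Nkx2-5 (-0.43), Foxa1 (-0.24), Hand1 (-0.2) and Trps1 (0.26). The partner calls were taken from the main fit and were not followed through the batch blocks or other alternatives.

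The islands whose scores followed the Gata islands most closely over the 34 arrays were found for the island with most probes of each gene, as a description over arrays that share groups and slides. For the Gata2 start site they were Nkx2-5 (r = 0.87), Hmx1 (0.85) and Tfap2e (0.84), and for Gata3 far upstream Dlx2 (0.89), Sox17 (0.87) and Hoxb13 (0.87). Grin1 (0.85), Six6 (0.83) and Shisa3 (0.82) were nearest to the Gata4 start site. Foxj1 (0.78), Nrbp2 (0.75) and Cygb (0.75) were nearest to Gata5, and Phldb2 (0.86), Mzb1 (0.83) and Ptk7 (0.83) to Gata6 mid intragenic. Among the Gata islands themselves, the 21 pairs within a gene had a median r of 0.43 (range -0.03 to 0.87) and the 99 pairs between genes a median of 0.26 (-0.26 to 0.70). The closest pair was the distal start and near upstream islands of Gata2 (r = 0.87).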

How the data were processed

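The authors immunoprecipitated methylated DNA, hybridized bound (Cy5) against input (Cy3) DNA on Agilent CpG island arrays and, per the file headers, let Feature Extraction subtract background, normalize the dyes linearly and write the log10 ratio of bound over input with the intensity of each channel. The deposited processed table of the authors holds a score per probe, its Z-score within each array, in which probe melting temperature was taken into account, and was used as an alternative. Array numbers limit the precision.

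From the deposited log10 ratios, control and outlier-flagged spots were left out, each array (88737 to 97651 probes) was standardised to its own mean and SD, and the mean Z-score was taken over islands of at least 3 probes with gaps of at most 500 bases. The melting temperature step was not repeated. Differences were fitted for all 13616 islands with limma 3.58.1 (lmFit, eBayes) in R 4.3.3, with 1 mean per group over 29 arrays (31 with teratomas) and Benjamini-Hochberg adjustment over all islands, and tissues by a moderated F test over 16 adult arrays. An adjusted p under 0.05 is named a call. Groups came from the labels. The fits were tested on simulated data. Island positions are those of the 6 array files whose header names mm9. Full values are given for called islands and for the island with most probes of each gene. Of the partner genes the 6 with the largest called differences, and for likeness the 3 highest correlations among genes with at least 5 probes, are named. The member genes, gene lists and tests were chosen with earlier results of these data known. Alternatives covered scaling, source table, background, dim probes, island summary, batch blocks, tests and left-out arrays. Normexp used median signals, since not all files hold mean signals. That fit, those without the 6 adult arrays, those without colon and pancreas, and the rescaled pancreatic values were chosen after seeing the data.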

Additional observations from a re-analysis of the deposited data

Results flagged for a closer look

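In groups of 4 to 10 arrays, 5 of 32 group and island combinations held an array that lay far from the rest. The rate of about 1 in 20 given by chance holds for independent replicates. The embryos differ in age, the differentiated ES arrays in procedure, and the islands are correlated, so that rate does not apply here. Such combinations were not counted over all islands. Retinoic acid treated cells accounted for 3 of the 5 combinations. They scored 1.61 in Gata2 near upstream (the other differentiated ES arrays lay between 0.00 and 0.36) and 0.81 in the Gata4 start-site island (others -0.36 to -0.24). In the opposite direction, they scored 0.17 in Gata5 (others 0.63 to 0.75). The embryo of 10.5 dpc scored 0.03 in the Gata2 start-site island against -0.19 to -0.12 in the other embryos. The embryo of 8.5 dpc scored -1.20 in Gata3 far upstream against -0.41 to -0.26. The retinoic acid array and this embryo were each alone in their group in their scanner and software version. Treatment or age therefore cannot be told apart from batch at these scores.

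In the pancreatic samples, which entered no test, 12 scores lay above the highest of the 16 adult arrays. Such scores were not counted over all islands, and these samples shared no scanner or software version with adult tissue. Sorted beta cells gave 1 of these, 0.79 in the Gata4 start-site island, where Min6 scored 1.16 and aTC 0.86 and the adult maximum was 0.03. Min6 also exceeded the adult maximum at the Gata2 distal start (1.14 against 0.95). In Gata3, Min6 scored 1.39 and aTC 1.03 far upstream (adult maximum -0.18), aTC scored 1.50 upstream (0.28), and Min6 and aTC scored 1.33 and 1.56 near intragenic (0.75). In Gata6, Min6 and aTC scored 0.17 and 0.52 near intragenic (-0.05), and aTC scored 1.65 mid intragenic, next to an adult maximum of 1.64.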

How the results depend on the processing

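The differences at the called Gata islands kept their direction under every alternative that could be fitted, but the number that passed the threshold changed. With slide, scan day or software version as a fixed block, embryos were linked to the groups they were compared with only through the embryo of 8.5 dpc. The direction of the embryo differences in those fits therefore rests on that array. From the deposited table and with at least 5 probes per island only 8 of the 16 islands were scored, and with dim input probes left out 10, so counts there fall mainly because called islands have no value. In differentiated ES cells against adult tissue 4 Gata islands were called, but 2 on the median-centred log2 scale (1 higher, 1 lower), from the deposited table (2 higher) or with at least 5 probes per island, and 0 with slide or scan day as a fixed block. Against embryos 7 were called, but 4 with median and MAD standardisation, on the log2 scale, from the deposited table or with 5 probes, 3 with normexp background or with software version as a block, and 0 with slide or scan day as a block. In undifferentiated ES cells against adult tissue 1 was called, and 0 under median and MAD, log2 scale, normexp, 5 probes, each of the fixed blocks, a fit of the 2 classes alone and the methods' t-test. The deposited table also gave 1 call, but Gata3 far intragenic, the island of the main call, was not scored there. That call is thus at another Gata island, which was not identified. In the deposited values J1 correlated best with EB5 (r = 0.30) and next with TT2 (r = 0.29). In embryos against adult tissue 7 were called, but 4 from the deposited table or with 5 probes, and 0 with normexp or any fixed block. In teratomas against differentiated ES cells 2 were called, but 1 with the median of probes, slide as a random block or without the 6 adult arrays of 1 scan day, and 0 under median and MAD, log2 scale, normexp, software version as a block and the methods' t-test. Among 8 adult tissues 0 were called, but 1 on the log2 scale and 7 without those 6 arrays, and 0 with scan day as a block where colon and pancreas were left out. Apart from islands that were not scored, the cause was not tested.

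Leaving out 1 array at a time gave 4 to 5 calls in differentiated ES cells against adult tissue, 4 to 8 against embryos (lowest without the embryo of 11.5 dpc or without retinoic acid treated cells), 0 to 2 in undifferentiated ES cells against adult tissue (0 without EB5 or TT2, 2 without J1), 6 to 8 in embryos against adult tissue, 0 to 3 in teratomas against differentiated ES cells (0 without either teratoma, 1 without embryoid bodies, retinoic acid treated cells or endoderm replicate 1) and 0 to 1 among tissues (1 without liver replicate 2). Differentiated against undifferentiated ES cells gave 0 throughout, and 1 island stood above all adult arrays in the 3 pancreatic samples under each scaling.

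Replicate numbers of the tissues were not used as pairs in the main fit. Same-numbered arrays deviated together in 14 of 28 tissue pairs (r above 0.1, with a median of 0.11 and a range of -0.25 to 0.63). These values include the 6 doubtful arrays and change with an exchange of their labels, so they cannot decide whether the numbers pair the arrays. With the replicate number as a block 0 Gata islands were called among tissues, and colon exceeded the other tissues at Gata4 upstream by 1.87 (adjusted p = 0.00849). Slide and scan day blocks could not be fitted for teratomas against differentiated ES cells or, with all 8 tissues, among tissues, nor software version among tissues, which share 1 version. Normexp on mean signals was not run. The bound signal of 1.54 to 5.59 times background limits what small differences can be measured.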
